A study of Mus musculus with 2 samples.

Results

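The 10 genes described here carry out MHC class I antigen presentation: H2-K1, H2-D1, B2m, H2-T23, Tap1, Tap2, Tapbp, Psmb8, Psmb9 and Nlrc5. They were chosen by symbol among the 32285 genes of the deposited matrices, and all 10 were found, each under 1 gene identifier. Single-cell RNA was sequenced from whole mouse uterus in 2 libraries, each a pool of 3 female C57BL/6J mice aged 6 months. The library labelled control came from mice titled Prickle1 f/f, and the library labelled cKO from mice titled Prickle1 f/f MiC, so both groups carry the floxed Prickle1 alleles. MiC is not spelled out in the labels, nor are the cells that would lose Prickle1 or the part of the gene that would be deleted, and the genotype is entered as wild-type in both samples. With 1 pooled library per group there is no replicate check of any difference, mouse to mouse variation cannot be seen, and no p-value is given. Intervals are 95% intervals that cover counting error only.

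Cells with at least 1000 unique molecular identifiers (UMIs), at least 500 genes and at most 20% mitochondrial UMIs were kept, which left 3490 cells labelled control and 3586 labelled cKO. The files held 45035801 UMIs for control and 34261441 for cKO, the median cell had 4953 and 4903 UMIs, and the libraries shared 6 cell barcodes. Prickle1 itself, the targeted gene, had 96 UMIs in control cells and 265 in cKO cells, or 2.56 and 9.03 CPM, counts scaled to a class total of 1000000, a ratio of 3.53 (2.78 to 4.51) against the direction a deletion would give. Within classes the ratio of Prickle1 was 2.04 (1.44 to 2.95) in fibroblast-like cells, from 42 and 144 UMIs, 3.21 (1.42 to 8.52) in T or NK cell-like cells, from 7 and 39, 4.12 (1.19 to 11.6) in epithelium-like cells, from 17 and 5, and 1.62 (0.882 to 3.17), with equality inside the interval, in smooth muscle-like cells, from 14 and 51. The reads come from the 3' end of transcripts and the deleted part is not stated, so these counts do not check the labels, and the groups are called by their labels throughout. A caller of doublets marked 4 of 7076 cells (0.0565%), too few for it to have worked, so doublets are assumed to remain.

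Clustered cells were named from marker genes as 11 classes, with the 10 genes and interferon-related genes kept out of the clustering. In 6 classes both libraries held at least 100 cells. Smooth muscle-like cells numbered 308 in control and 679 in cKO, fibroblast-like cells 851 and 1343, and epithelium-like cells 1316 and 110. Macrophage or monocyte-like cells numbered 320 and 230, dendritic cell-like cells 151 and 205, and T or NK cell-like cells 345 and 742. The other 5 classes had fewer cells and are given by level only, and 1 cluster with 23 and 59 cells stayed unnamed.

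MHC class I molecules display peptides from inside the cell to CD8 T cells and are ligands of inhibitory receptors on NK cells. Proteasomes cut proteins into peptides, a transporter carries the peptides into the endoplasmic reticulum, and a loading complex places them on a heavy chain paired with beta-2 microglobulin. Interferons raise most genes of this pathway, and they replace constitutive proteasome subunits by immunoproteasome subunits.

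The summed level of the 10 genes followed the cell class more than the library. T or NK cell-like cells had 10978 CPM of the 10 genes in control and 11381 in cKO, the macrophage or monocyte-like class 8657 and 8792, and the dendritic cell-like class 7415 and 6187. Epithelium-like cells had 2700 and 2034 CPM, fibroblast-like cells 1806 and 1474, and smooth muscle-like cells 318 and 337. H2-K1, H2-D1 and B2m hold most of the UMIs in these sums. Smooth muscle-like cells were thus lowest of the compared classes in both libraries.

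**Figure D1:**
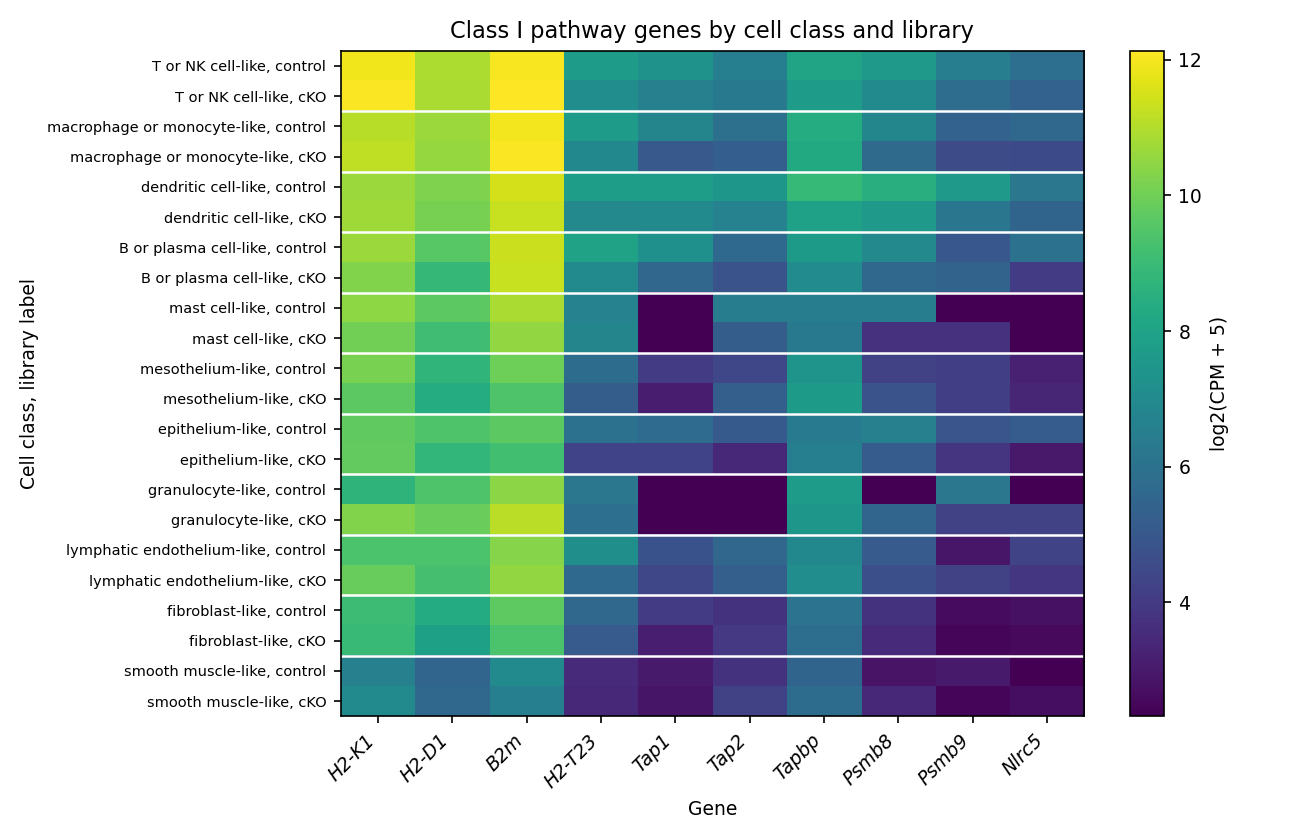
Level of each gene as log2(CPM + 5) (colour) in 11 cell classes and the 2 libraries (rows), with classes in order of H2-K1. T or NK cell-like cells have the highest H2-K1 in both libraries, 3822 and 4298 CPM, and smooth muscle-like cells the lowest, 92.5 and 125 CPM.

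H2-K1 and H2-D1 encode the heavy chains of the classical class I molecules, and B2m encodes the light chain that all of them need. H2-K1 stood at 3822 CPM in control and 4298 in cKO T or NK cell-like cells, followed by 2173 and 2343 CPM in the macrophage or monocyte-like class and 1619 and 1696 in the dendritic cell-like class. The first and second of these classes differed from the next by more than the gap between libraries and the counting intervals. From dendritic cell-like cells down to the class ranked ninth, neighbours in the order did not differ by that measure. H2-D1 had the same first 3 classes, with means over the 2 libraries of 1912, 1572 and 1155 CPM. B2m was 4172 and 4482 CPM in T or NK cell-like and 3978 and 4361 in macrophage or monocyte-like cells, which did not differ beyond the spread, and the order of these classes turned when every cell was thinned to 1000 UMIs or free RNA was subtracted. Heavy chain genes are near-identical copies of each other, so reads can be split between them or dropped in counting, and their levels and ratios are uncertain to that extent.

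The genome places 8 of the 10 genes on chromosome 17 (GENCODE vM21 annotation of GRCm38). H2-K1 lies at chr17:33996017-34000347 and H2-D1 at chr17:35262730-35267499, H2-T23 at chr17:36029773-36032855 and Tapbp at chr17:33915899-33929292. Psmb9, Tap1, Psmb8 and Tap2 lie side by side within 34335 bases at chr17:34181987-34216321. B2m is at chr2:122147686-122153083 and Nlrc5, the activator of class I transcription, at chr8:94434356-94527272. All are protein-coding, and a UMI counts the whole gene, so exons and UTRs are not told apart.

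RefSeq promoter sequences (GRCm38.p6, from 250 bases before to 50 after the start) were available for 8 of the 10 genes, all but Tap2 and Nlrc5. They were searched on both strands for 4 motifs of class I promoters: AANNGAAA for interferon regulatory factors, an NF-kB motif, TGACG for the X2 box and ATTGG for the Y box. Stretches of 4 promoters are shown, 5′ to 3′ on the strand of the gene, because H2-K1, H2-D1 and B2m had the most alike levels across classes and H2-T23 differed from them between the libraries. Capitals mark the motifs. The stretches are chr17:34000348-34000477 (minus strand), chr17:35262909-35263048 (plus), chr2:122147517-122147646 (plus) and chr17:36032702-36032831 (minus).
H2-K1: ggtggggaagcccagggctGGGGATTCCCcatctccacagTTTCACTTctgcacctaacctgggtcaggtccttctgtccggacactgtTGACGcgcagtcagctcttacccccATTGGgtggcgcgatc
H2-D1: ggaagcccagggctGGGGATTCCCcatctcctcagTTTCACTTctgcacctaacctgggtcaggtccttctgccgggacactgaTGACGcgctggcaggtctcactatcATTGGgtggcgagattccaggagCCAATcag
B2m: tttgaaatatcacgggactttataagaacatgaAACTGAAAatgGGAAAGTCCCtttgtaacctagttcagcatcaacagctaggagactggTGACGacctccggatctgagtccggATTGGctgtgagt
H2-T23: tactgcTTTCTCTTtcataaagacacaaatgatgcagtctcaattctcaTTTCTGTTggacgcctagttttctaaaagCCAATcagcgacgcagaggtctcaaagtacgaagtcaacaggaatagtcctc

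In H2-K1, H2-D1 and B2m the X2 box was followed by the Y box after 20 bases, and an X2 box with a Y box 15 to 25 bases after it was found in 3 of the 8 searched genes and in 0.463% of 27026 promoters of the same length. The same 3 genes held the NF-kB motif, which 4.71% of all promoters hold. The interferon regulatory factor motif was found in 4 of the 8 (H2-K1, H2-D1, B2m and H2-T23) and in 24.1% of all promoters. TGACG was found in 5 of 8 and in 20.9% of all, and ATTGG in 7 of 8 and in 38.0% of all. H2-T23 held a Y box without an X2 box in this window. Psmb9 and Tap1 start 226 bases apart on opposite strands, so their windows overlap. A match is a description of letters, not a site or a cause.

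Between the libraries, H2-K1, H2-D1 and B2m differed little in the immune classes. In macrophage or monocyte-like cells H2-K1 was 2173 CPM in control and 2343 in cKO, H2-D1 1619 and 1524, and B2m 3978 and 4361. For the T or NK cell-like class H2-D1 was 1938 and 1885 CPM, and B2m 4172 and 4482. In dendritic cell-like cells H2-D1 was 1211 and 1098 CPM, and B2m 2901 and 2516. The largest fold among these 3 genes in the 3 immune classes was 1.15, for B2m in the dendritic cell-like class.

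Fibroblast-like cells had lower H2-D1 in cKO, at 326 CPM in control and 236 in cKO, a fold of 1.38 (1.31 to 1.45), and lower B2m, at 816 and 654 CPM, a fold of 1.25 (1.21 to 1.28). Epithelium-like cells had lower H2-D1, at 682 and 441 CPM, a fold of 1.55 (1.43 to 1.68), and lower B2m, at 808 and 560 CPM, a fold of 1.44 (1.34 to 1.55). Over the whole epithelium-like class H2-K1 was 846 CPM in control and 864 in cKO, with an interval that includes equality. Its values by cluster are given below. In smooth muscle-like cells H2-K1 was 92.5 CPM in control and 125 in cKO, while B2m was 122 and 88.4, from 86 to 261 UMIs each.

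A called difference means at least 2-fold on the log2(CPM + 5) scale, which holds back genes of low level. By that rule none of the 10 genes was called lower in smooth muscle-like cells, where 1.59% of all tested genes were called lower and 3.4% higher. None was called lower in fibroblast-like cells (0.678% of all genes) or in T or NK cell-like cells (2.34%). Epithelium-like cells had 6 of the 10 called lower, against 7.34% of all genes, macrophage or monocyte-like cells 3 of 10, against 2.11%, and dendritic cell-like cells 1 of 10, against 3.48%. None was called higher in any of the 6 classes, where the share of all genes called higher was 1.46% in fibroblast-like, 12.1% in epithelium-like, 1.0% in macrophage or monocyte-like, 3.39% in dendritic cell-like and 0.679% in T or NK cell-like cells. Only genes with a mean of at least 10 CPM enter the shares over all genes, a minimum that 5 of the 10 genes reached in the smooth muscle-like class, 5 in the fibroblast-like class and all 10 in the other 4.

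The median log2 ratio of cKO over control for the 10 genes was lowest in epithelium-like cells, at -1.27. It was -0.81 for the dendritic cell-like class, -0.75 for the macrophage or monocyte-like class, -0.43 for T or NK cell-like cells, -0.24 for fibroblast-like cells and 0.21 for smooth muscle-like cells. Over all tested genes the median lay between 0.08 and 0.22 in these classes. The genes of the peptide supply other than Tapbp, with H2-T23 and Nlrc5, lay farther below equality than the classical chains in macrophage or monocyte-like cells, as the plot of ratios shows.

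**Figure D2:**
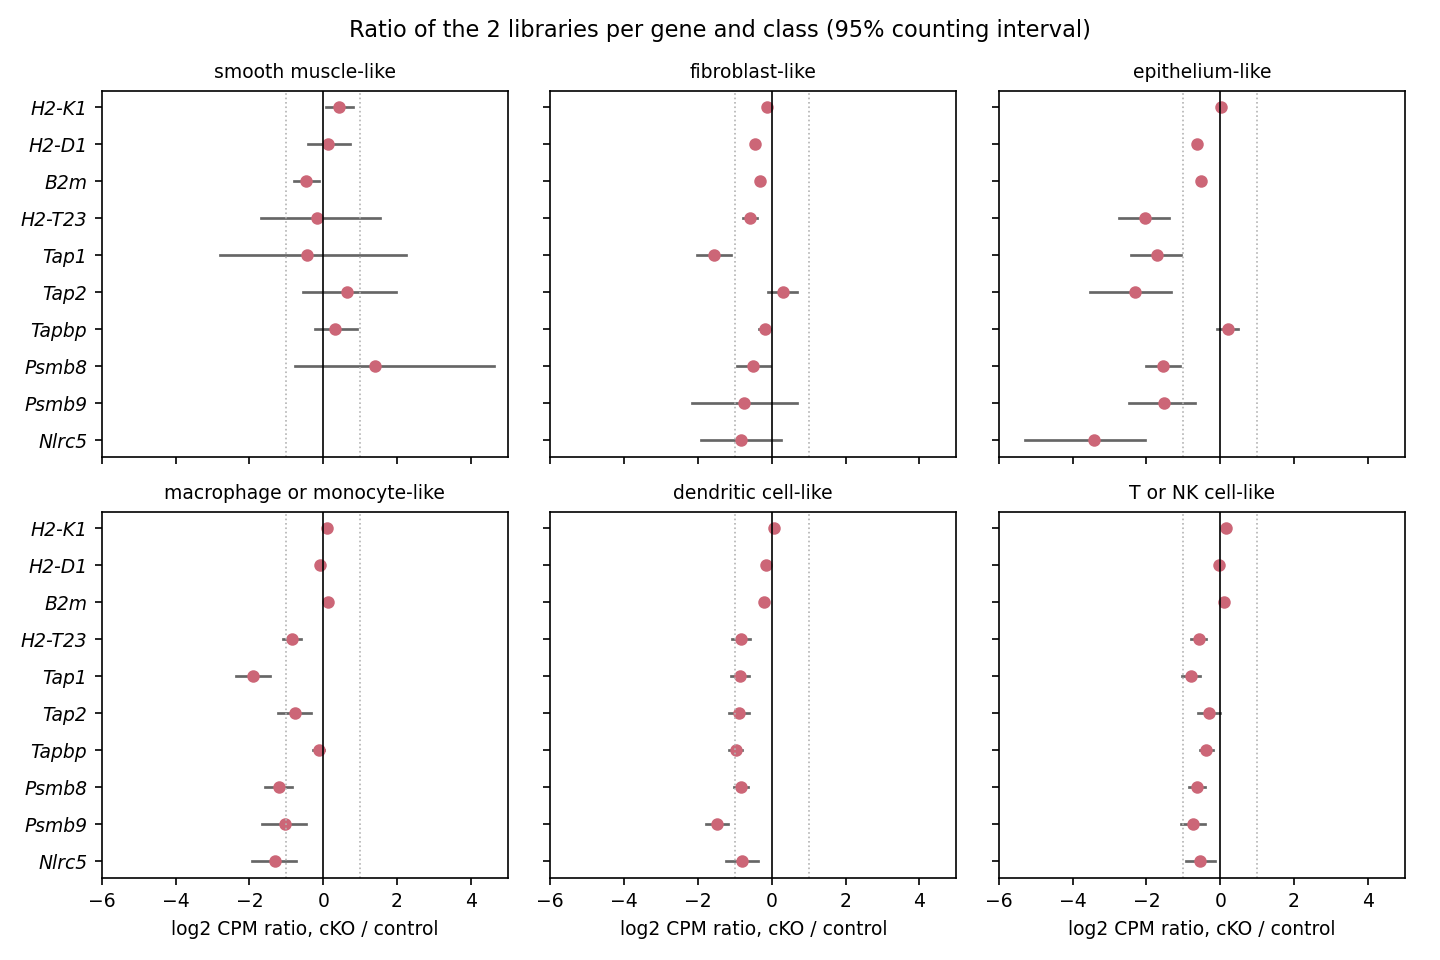
Log2 ratio of CPM, cKO over control (horizontal axis), for each gene in 6 classes, with 95% counting intervals as lines and 2-fold marked by dotted lines; genes with 3 or fewer UMIs in both libraries, or with 0 in one, are left out. In macrophage or monocyte-like cells H2-K1, H2-D1, B2m and Tapbp sit near 0 and Tap1 lies 3.72-fold lower.

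Tap1 and Tap2 pair to form the peptide transporter. In macrophage or monocyte-like cells Tap1 had 294 UMIs in control and 49 in cKO, or 105 and 28.3 CPM, 3.72-fold lower (2.74 to 5.14). With every cell thinned to 1000 UMIs, Tap1 rested on 33 and 14 UMIs there, or 103 and 60.9 CPM, and its log2 ratio of -0.72 was no longer a call. In the same cells Tap2 was 56.8 and 33.5 CPM, a fold of 1.70 (1.25 to 2.33), and after thinning, from 24 and 6 UMIs, its log2 ratio was -1.36, which is a call. Tap1 was 218 and 120 CPM in dendritic cell-like cells, a fold of 1.82 (1.53 to 2.16), and 158 and 91.7 CPM in T or NK cell-like cells, a fold of 1.73 (1.46 to 2.04). Its level in fibroblast-like cells was 11.6 and 3.91 CPM, a fold of 2.96 (2.15 to 4.10), from 111 and 63 UMIs. Tap1 thus had its interval below equality in 5 of the 6 classes and was not called in fibroblast-like cells because its level is low. In smooth muscle-like cells it rested on 3 and 5 UMIs.

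Tap2 differed less than Tap1 in fibroblast-like cells, where it was 8.54 CPM in control and 10.5 in cKO, and in T or NK cell-like cells, where it was 89.5 and 72.2. Dendritic cell-like cells had the highest mean of both genes, 169 CPM for Tap1 and 136 for Tap2. Tapbp, the tapasin that bridges the transporter and the heavy chain, was 474 CPM in control and 241 in cKO dendritic cell-like cells, a fold of 1.96 (1.75 to 2.21). In macrophage or monocyte-like cells Tapbp was 332 and 305 CPM, a fold of 1.09 (0.977 to 1.21). Over the whole epithelium-like class it was 77.9 and 89.7, a fold of 0.869 (0.721 to 1.05), with equality inside the interval. In its cluster 0 Tapbp was lower in cKO, a fold of 1.45 (0.950 to 2.33), an interval that also includes equality. Cluster 15 had 146 and 98.5 CPM, lower in cKO, and cluster 1, with 10 cKO cells, 76.8 and 122. Over whole classes, the fold of Tapbp was largest in the dendritic cell-like class among the 6. The difference between classes was not tested.

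Psmb8 and Psmb9 encode catalytic subunits of the immunoproteasome that take the places of Psmb5 and Psmb6. Psmb8 was 109 CPM in control and 47.3 in cKO macrophage or monocyte-like cells, 2.31-fold lower (1.81 to 2.99). It was 346 and 194 CPM in dendritic cell-like cells and 191 and 124 CPM in T or NK cell-like cells, folds of 1.78 (1.56 to 2.04) and 1.54 (1.32 to 1.78). Psmb9 was 188 and 67.5 CPM in dendritic cell-like cells, 2.78-fold lower (2.25 to 3.45), the 1 gene of the 10 called there. In macrophage or monocyte-like cells Psmb9 was 37.9 and 18.5 CPM, a fold of 2.05 (1.37 to 3.15), which falls short of a call on the log2(CPM + 5) scale.

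As a share of the paired subunits, Psmb8 made up 50.9% of Psmb8 plus Psmb5 UMIs in control macrophage or monocyte-like cells (46.8 to 55.0) and 32.5% in cKO (26.8 to 38.7). Dendritic cell-like cells had 71.7% (68.5 to 74.9) and 58.2% (54.2 to 62.1). T or NK cell-like cells had 66.3% and 62.7%, with overlapping intervals. Psmb9 made up 59.3% of Psmb9 plus Psmb6 in control dendritic cell-like cells (54.9 to 63.5) and 38.0% in cKO (32.7 to 43.4). In macrophage or monocyte-like cells the Psmb9 share was 19.1% and 9.67%, and in T or NK cell-like cells 48.6% and 40.1%. Fibroblast-like cells kept Psmb8 shares under those of the immune classes in both libraries, at 6.90% and 4.98%.

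**Figure D3:**
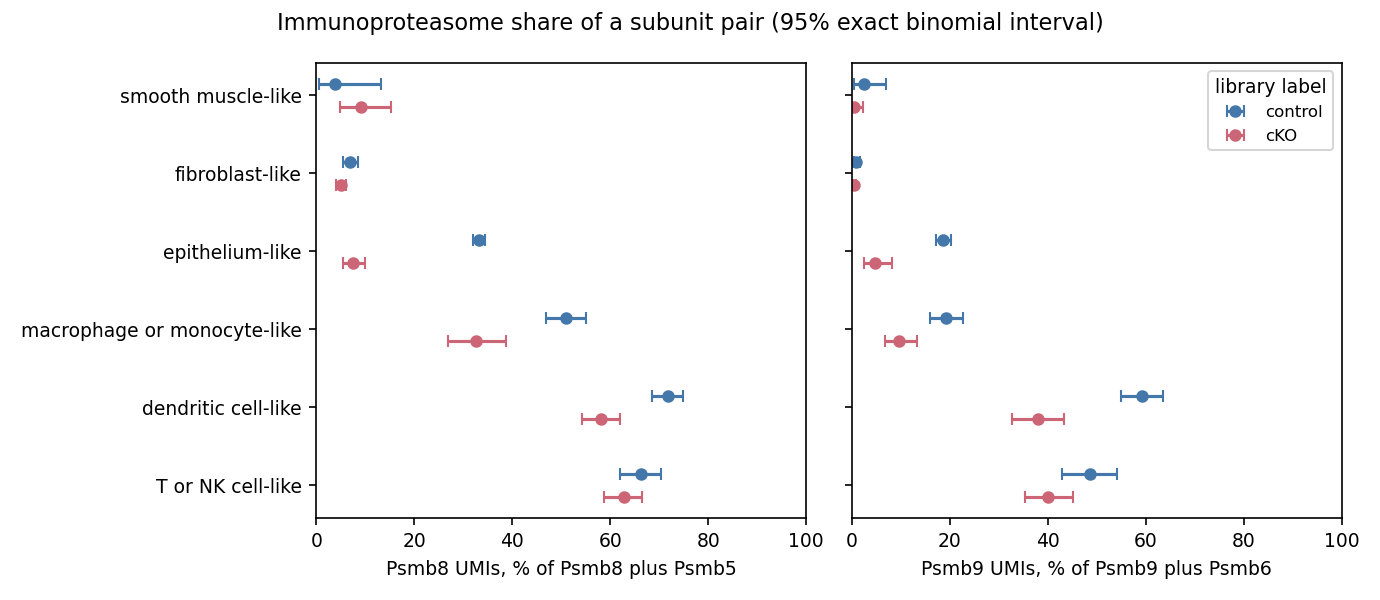
Share of Psmb8 in Psmb8 plus Psmb5 UMIs (left) and of Psmb9 in Psmb9 plus Psmb6 UMIs (right), in percent, for 6 classes and 2 libraries, with 95% exact binomial intervals. In dendritic cell-like cells the Psmb9 share is 59.3% in control and 38.0% in cKO, and the intervals do not overlap.

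Nlrc5 drives transcription of class I genes through their X and Y boxes. It was 44.3 CPM in control and 17.9 in cKO macrophage or monocyte-like cells, 2.48-fold lower (1.66 to 3.80). That call, at a log2 ratio of -1.11 for Nlrc5, was lost in 3 of 13 alternatives, where the ratio lay between -0.97 and -0.93. Dendritic cell-like cells had 69.7 and 40.2 CPM, a fold of 1.73 (1.28 to 2.35), and T or NK cell-like cells 54.5 and 37.5 CPM, a fold of 1.45 (1.10 to 1.92). In smooth muscle-like cells it had 0 and 3 UMIs, too few for a ratio. H2-T23, the mouse Qa-1 heavy chain that presents signal peptides to NK receptors, was 202 and 113 CPM in macrophage or monocyte-like cells, a fold of 1.79 (1.52 to 2.11). It was 213 and 119 CPM in dendritic cell-like cells, 205 and 137 in T or NK cell-like cells, and 45 and 30.1 in fibroblast-like cells. H2-T23 was lower in cKO in these 4 classes with intervals clear of equality. By contrast, among the 6 compared classes H2-K1 was lower in the pooled fibroblast-like class only. There it was lower in 2 of the 5 clusters with at least 20 cells per library. The near equality of H2-K1 in the pooled epithelium-like class did not hold within its clusters 0 and 15, where H2-K1 was lower in cKO.

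Epithelium-like cells differed most in number and in kind, so their values need the clusters beside them. Cluster 6, with 232 control cells and 1 cKO cell, held 55.3% of the control UMIs of the class, and cluster 15, with 51 and 15 cells, held 63.2% of the cKO UMIs. Over the whole class Nlrc5 had 594 UMIs in control and 4 in cKO, or 31.4 and 2.97 CPM, 10.6-fold lower (4.12 to 39.1). H2-T23 was 60.4 and 14.8 CPM, 4.07-fold lower (2.62 to 6.69), and Tap2 was 29.5 and 5.93 CPM, 4.97-fold lower (2.51 to 11.6). Tap1 was 48.3 and 14.8 CPM, Psmb8 90.5 and 31.1, and Psmb9 25.4 and 8.89, folds of 3.26, 2.91 and 2.86. Without the clusters drawn over 90% from 1 library, 4 of the 10 were called lower, against 7.89% of all genes, and the median log2 ratio was -0.74. Psmb8, at -0.79, and Psmb9, at -0.61, were the genes no longer called. The Tap2 call was kept in 11 of 13 alternatives and the Psmb9 call in 10 of 13, with log2 ratios up to -0.36 and -0.34.

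Cluster 0 of the epithelium-like cells was shared by both libraries, with 730 control and 83 cKO cells, so that 89.8% of its cells were control, just under that limit of 90%. It held 17.4% of the control and 27.5% of the cKO UMIs of the class. Its cells were shallow, with medians of 3100 and 3436 UMIs beside 35913 and 30154 in cluster 15. Its first leading genes were Gm49890, Gm26917 and Gm9195. In cluster 0 all 10 genes were lower in cKO, and 4 of the 10 were called lower, against 10.2% of all genes. None was called higher, against 13.3% of all genes. Nlrc5 had 262 UMIs in control and 2 in cKO, or 79.9 and 5.39 CPM, a ratio of 14.8 (4.07 to 123). Tap1 was 79.3 and 18.9 CPM, 4.21-fold lower (2.01 to 10.6), from 260 and 7 UMIs. H2-T23 was 64.7 and 16.2 CPM, 4.002-fold lower (1.81 to 11.0), and Psmb8 58.0 and 24.2, 2.39-fold lower (1.23 to 5.31). Tap2 was 34.8 and 16.2 CPM, a fold of 2.15 (0.959 to 5.99), and Psmb9 18.3 and 13.5, a fold of 1.36 (0.551 to 4.34), and both intervals include equality. H2-K1 was 900 and 776 CPM and B2m 466 and 390 in that cluster, folds of 1.16 and 1.19. The median log2 ratio of the 10 genes was -0.78, and that of all tested genes 0.10. The Psmb8 share of Psmb8 plus Psmb5 was 37.6% in control (33.4 to 42.0) and 13.8% in cKO (6.53 to 24.7), beside 33.2% and 7.47% over the whole class. The Psmb9 share of Psmb9 plus Psmb6 was 17.1% (13.3 to 21.5) and 12.2% (4.08 to 26.2) in cluster 0, with overlapping intervals, beside 18.7% and 4.80% over the whole class.

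In cluster 15, with 15 cKO cells, B2m was 1061 CPM in control and 630 in cKO, a fold of 1.69 (1.54 to 1.85), and H2-D1 was 707 and 435. H2-K1 was 1087 and 895 CPM in that cluster and Tapbp 146 and 98.5, both lower in cKO. H2-T23 was 38.7 and 11.7 CPM there, 3.30-fold lower (1.72 to 7.11), while Tap1 was 14.4 and 11.7 with an interval that includes equality. H2-T23 was thus lower in clusters 0 and 15, and the interval of Tap1 was clear of equality in cluster 0. In cluster 1, with 10 cKO cells, H2-K1 was 984 and 999 CPM and Tapbp 76.8 and 122. The difference between the clusters was not tested.

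**Figure D4:**
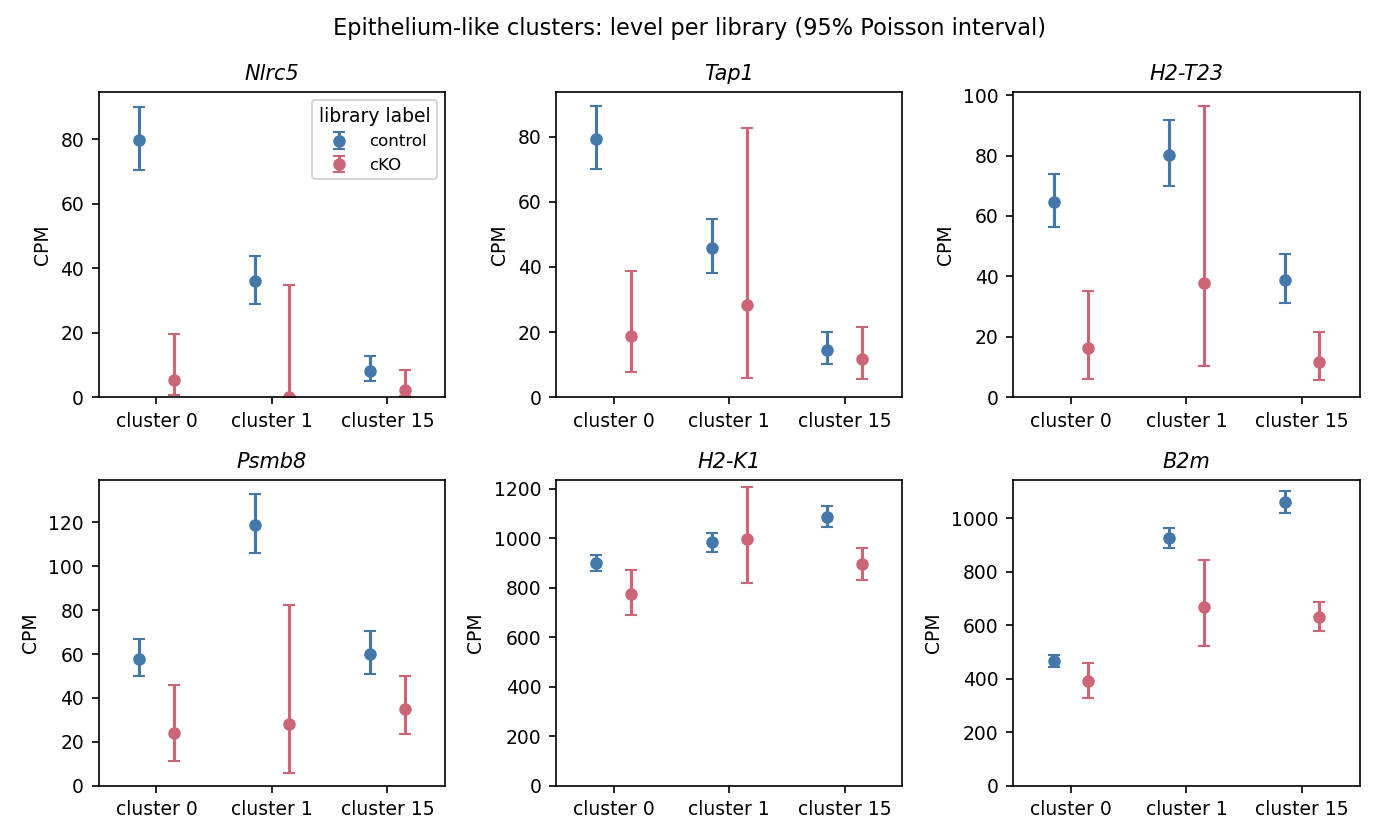
CPM of 6 genes (vertical axes, each from 0) in the epithelium-like clusters 0, 1 and 15 for each library, with 95% Poisson intervals; cluster 1 has 10 cKO cells. In cluster 0 Nlrc5 is 79.9 CPM in control and 5.39 in cKO, while H2-K1 is 900 and 776.

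Clusters inside the other classes varied as well. The T or NK cell-like cluster 10 (139 and 297 cells) had Irf8, Klre1 and Prf1 among its leading genes. There H2-T23 was 247 CPM in control and 122 in cKO, a fold of 2.02 (1.64 to 2.5), and Psmb8 243 and 126. Cluster 18 (109 and 149 cells) was led by Il5, with Gata3, Trac and Cd4 also among its leading genes. In cluster 18 Psmb8 was 135 and 147 CPM and Nlrc5 54.8 and 55.1, while Tap1 was 151 and 85.2. Cluster 7, led by Trdc and Cd163l1 (97 and 296 cells), held 36.9% of the cKO UMIs of the class. In it H2-T23 was 198 and 166 CPM, a fold of 1.19 (0.912 to 1.55), Tap1 100 and 79.2, a fold of 1.27 (0.858 to 1.85), and Nlrc5 52.6 and 42.6, a fold of 1.23 (0.710 to 2.08), and these 3 intervals include equality. Tapbp and Psmb8 were lower in that cluster, with folds of 1.66 (1.34 to 2.05) and 1.59 (1.18 to 2.14). In the fibroblast-like cluster 5 (299 and 399 cells) H2-T23 was 40.2 and 17.8 CPM, a fold of 2.26 (1.75 to 2.94). The shallow fibroblast-like cluster 11 (224 and 59 cells) went the other way for H2-K1, at 244 and 759 CPM, and for B2m, at 371 and 881. Cluster 24, with 15 control and 221 cKO cells, held 2.61% of the control and 28.1% of the cKO UMIs of the fibroblast-like class. That class thus also differs in its make-up.

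When every cell was thinned to 1000 UMIs, some cells showed no UMI of H2-K1, H2-D1 or B2m. Their share was 77.6% in control and 80.1% in cKO smooth muscle-like cells, and 32.3% and 31.6% in fibroblast-like cells. Epithelium-like cells had 17.9% (15.8 to 20.04) in control, and 33 of 110 cells in cKO had none (21.6% to 39.5%). Cluster 0 made up 730 of the 1316 control and 83 of the 110 cKO cells of that class. Its B2m level, 466 and 390 CPM, was under that of cluster 15, 1061 and 630. The part of this make-up in the share was not tested. The share was 2.81% and 1.3% in macrophage or monocyte-like, 1.32% and 3.90% in dendritic cell-like, and 0.290% and 0.270% in T or NK cell-like cells. Without thinning it was 3.34% and 6.36% in epithelium-like cells, and 10.2% and 4.54% in fibroblast-like cells.

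Genes of the rest of the pathway were read from fixed lists. The 14 constitutive proteasome genes had none called lower in any of the 6 classes, where 0.678% to 7.34% of all genes were. In epithelium-like cells 5 of 14 were called higher, against 12.1% of all genes, among them Psmb5 at 182 and 385 CPM. In cluster 0 alone 4 of 14 were called higher, against 13.3% of all genes. The proteasome activator Psme1 was 529 CPM in control and 353 in cKO dendritic cell-like cells. Psmb10, the third immunoproteasome subunit, was 113 and 43.4 in those cells, the 1 of 3 listed genes called there, against 3.48% of all genes called lower. Of 11 peptide loading genes, 2 were called lower in epithelium-like cells (Hspa5 and Calr, both chaperones of the endoplasmic reticulum), against 7.34% of all genes. None was called lower in the other 5 classes, where 0.678% to 3.48% of all genes were. Among other class I heavy chains, H2-T22 was 86.5 and 34.6 CPM in macrophage or monocyte-like cells and 145 and 58.9 in dendritic cell-like cells, while H2-Q7 was 360 and 386 in the latter.

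The regulator Irf7, which drives transcription of interferon genes and their targets, was lower in the 3 immune classes. Irf7 was 146 CPM in control and 41.0 in cKO macrophage or monocyte-like cells, 51.7 and 11.2 in T or NK cell-like cells, and 216 and 15 in dendritic cell-like cells. Of the listed class I regulators, 4 of 17 were called lower in the dendritic cell-like class, against 3.48% of all genes. The counts were 3 of 17 (2.34%) for T or NK cell-like and 2 of 15 (2.11%) for macrophage or monocyte-like cells. The median log2 ratios of that list were 0.17, 0.06 and -0.11 in the same order. Epithelium-like cells had 6 of 14 called lower (7.34% of all genes), with a median of -0.75, and cluster 0 alone 6 of 15 (10.2%). Fibroblast-like cells had 2 of 13 (0.678%), with a median of -0.03. Smooth muscle-like cells had none of 11 (1.59%), with a median of 0.57. Whether Irf7 bears on the class I genes was not tested. Type I interferon-stimulated genes with a mean of at least 10 CPM were called lower in 27 of 28 cases for epithelium-like cells (7.34% of all genes). The counts were 28 of 28 (3.48%) for dendritic cell-like and 22 of 28 (2.11%) for macrophage or monocyte-like cells. They were 24 of 24 (2.34%) for T or NK cell-like, 12 of 14 (0.678%) for fibroblast-like and 2 of 6 (1.59%) for smooth muscle-like cells. The median log2 ratio of this list ran from -2.83 in epithelium-like to -0.68 in smooth muscle-like cells. In epithelium-like cluster 0 alone, 26 of 28 were called lower, against 10.2% of all genes. None of the 10 class I genes is in this list. The interferon gamma targets had 12 of 14 called lower in macrophage or monocyte-like cells (2.11% of all genes) and 11 of 15 in the dendritic cell-like class (3.48%).

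**Figure D5:**
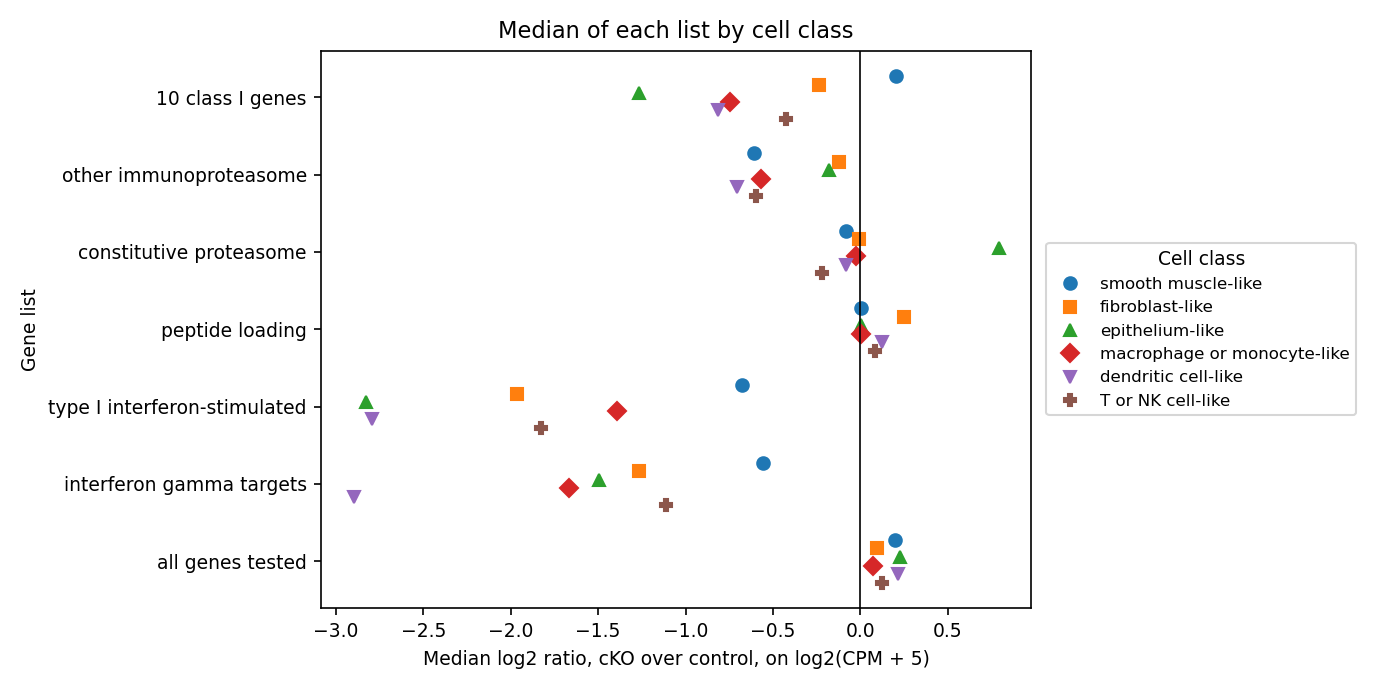
Median log2 ratio, cKO over control, on the log2(CPM + 5) scale (horizontal axis) for the 10 class I genes, 5 other lists and all tested genes, with 1 symbol per cell class; lists are read over genes with a mean of at least 10 CPM, and the 10 class I genes in full. The type I interferon-stimulated list lies lower than the 10 genes in all 6 classes, for example at -2.80 against -0.81 in dendritic cell-like cells.

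Transcripts of interferon beta, Ifnb1, numbered 1083 UMIs in control cells and 2 in cKO cells, and were found in 2.75% and 0.0279% of cells. Of the control UMIs, 595 lay in 35 cells of epithelium-like cluster 6, 310 in 38 cells of cluster 1, 87 in 17 cells of cluster 0 and 86 in 3 macrophage or monocyte-like cells. Clusters 6 and 1 held only 1 and 10 cKO cells, so the totals also follow the make-up of the libraries. In cluster 0 Ifnb1 was found in 2.33% of 730 control cells, and its 83 cKO cells are few for a share that low. None of the 110 cKO epithelium-like cells had an Ifnb1 UMI. Empty droplets of the control library held 31 UMIs of Ifnb1 and those of cKO 0. Ifne, an interferon of the uterine epithelium, had 110 and 4 UMIs, and Ifng, the interferon of T and NK cells, 27 and 43. Scaled to the class, Ifne was 5.77 and 2.96 CPM in epithelium-like cells, from 109 and 4 UMIs, a fold of 1.95 (0.739 to 7.27) with equality inside the interval. Ifng was 10.6 and 11.2 CPM within the T or NK cell-like class, from 19 and 35 UMIs. Whether these ligands bear on the class I genes was not tested.

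Over the 21 points of class and library, genes among the 8 whose level followed the mean of the 10 most closely were H2-Q7 (Pearson r 0.95), H2-Q6 (0.92), Sp110 (0.92), Sp100 (0.92), Dtx3l (0.91), Trim30a (0.90) and Slfn2 (0.88), out of 8763 candidates. The points share libraries and differ in depth, so these are descriptions. Within the 10, H2-K1 and H2-D1 were closest (r 0.96), Tap1 was closest to Nlrc5 (0.91), and Tap2 had the lowest r with the mean of the others (0.70).

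Markers of other cells also differed between the libraries, and not all in the same direction. The 6 epithelial markers, all detected, summed to 777 CPM in control and 152 in cKO dendritic cell-like cells, to 91.5 and 36.9 in macrophage or monocyte-like cells and to 150 and 60.6 in the T or NK cell-like class. The 6 macrophage markers summed to 70.4 and 15.6 CPM in epithelium-like cells. The 6 fibroblast markers were higher in cKO dendritic cell-like cells, at 150 and 323 CPM. They summed to 841 and 771 CPM in macrophage or monocyte-like cells and to 215 and 28.2 in the T or NK cell-like class. The 4 erythroid markers, all detected, were higher in the cKO library in 4 classes. They summed to 9.29 CPM in control and 1686 in cKO for the macrophage or monocyte-like class, 5.50 and 1585 for the dendritic cell-like class, 13.3 and 2113 for the T or NK cell-like class and 49.5 and 903 for the smooth muscle-like class. In fibroblast-like cells they were 322 and 229 CPM, and in epithelium-like cells 81.3 and 2.96. Free RNA, estimated from empty droplets, made up between 0 and 12.3% of the UMIs of a class, and after its subtraction the median log2 ratio of the 10 genes was -0.75 for the dendritic cell-like and -0.71 for the macrophage or monocyte-like class. Of 18 genes that respond to tissue dissociation, none was called in the 3 immune classes. In those classes 2.11% to 3.48% of all genes were called lower and 0.679% to 3.39% higher. In epithelium-like cells 2 of the 18 were called lower, against 7.34% of all genes. In epithelium-like cluster 0, 7 of the 18 were called higher and none lower, against 13.3% and 10.2% of all genes. The part of the marker signals in the class I ratios was not tested.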

How the data were processed

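Single-cell RNA of whole mouse uterus, digested with collagenase, was captured with a 10x Chromium 3' kit, per the labels' protocols. The deposited matrices hold raw UMI counts per gene and barcode, made by the authors with Cell Ranger 6.1.1 on mm10 per the submitters' processing notes, while the header of the deposited count files names version 4; the annotation release is not given in the sources used here. Cells were filtered as stated in the report, clustered with scanpy 1.11.5 (2000 variable genes, 30 components, 15 neighbours, Leiden resolution 1.0) and named from fixed markers; the rule that at least 3 markers reach 5% of a cluster's cells and 2-fold its median across clusters was set after seeing the data. UMIs were summed per class and library and scaled to CPM, and log2 ratios were taken after adding 5 CPM. Poisson, conditional ratio and Clopper-Pearson intervals are exact. Ratio and call code was tested on simulated data. Replicate fits were not possible with 1 library per group. The 10 genes and all lists were chosen with earlier results of these data known. Other genes were named by rule: at most the 3 highest and 3 lowest ratios of a list per class, and the 8 most like the members, of which 1 is not reported here. Alternatives covered scaling, pseudocount, minimum level, filters, clustering, free RNA, thinning and doublets.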

Additional observations from a re-analysis of the deposited data

Results flagged for a closer look

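For H2-K1 the log2 ratio of cKO over control was above 0 in smooth muscle-like cells (0.41) and below 0 in fibroblast-like cells (-0.14), with counting intervals on opposite sides of equality. The gap was 0.55. B2m was higher in macrophage or monocyte-like cells (0.13) and lower in epithelium-like cells (-0.52), a gap of 0.66. Neither difference between classes was tested, since each class has 1 library per group.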

How the results depend on the processing

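No paired analysis was possible because each group has 1 library, and no replicate could be left out for the same reason. Over 13 alternatives, 146 of 156 counts of called genes stayed within 1.5 times the reported count. Most of the reported counts are 0, so this share says little about the others. The limit also passes changes from 6 to 4 called lower in epithelium-like cells and from 3 to 2 in macrophage or monocyte-like cells. With 1 CPM added in place of 5, smooth muscle-like cells had 1 of the 10 genes called lower (2.72% of all genes) and 2 called higher (5.71%), and fibroblast-like cells 1 called lower (0.883%). Thinning every cell to 1000 UMIs gave 1 lower (4.12%) and 1 higher (9.44%) in smooth muscle-like, 1 lower (1.02%) in fibroblast-like and 4 lower (8.79%) in dendritic cell-like cells. At least 2000 UMIs per cell gave 1 lower (0.74%) in fibroblast-like cells. Dendritic cell-like cells had 6 called lower (4.52%) with median of ratios scaling, which moves the median of all genes there to 0 from 0.22, and 3 (4.48%) at Leiden resolution 2.0. The 3 called for the macrophage or monocyte-like class stayed 3 with thinning (6.13%), with Tap2 in place of Tap1. The cause was not tested. The median log2 ratio of the 10 genes reversed in fibroblast-like cells, to 0.079 from -0.24, as the mean of within-cluster ratios, and in smooth muscle-like cells, to -0.17 from 0.21, at 2000 UMIs per cell. Over the alternatives it lay between -1.05 and -0.75 in dendritic cell-like, -0.82 and -0.50 for macrophage or monocyte-like, -0.56 and -0.31 in T or NK cell-like and -1.46 and -0.74 in epithelium-like cells. Genes with fewer than about 10 UMIs in a class, such as Nlrc5 in cKO epithelium-like cells, are limited by depth.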
